A study of Mus musculus with 20 samples.

Results

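Fibronectin and the matricellular proteins are secreted glycoproteins of the extracellular matrix, and 10 of their genes (Fn1, Postn, Tnc, Thbs1, Thbs2, Spp1, Sparc, Sparcl1, Ctgf and Cyr61) were followed here through the kidneys of Alport mice. They were chosen by name, as members of these protein families, out of 47069 genes in the count table. The choice was made with earlier results of these data known. All 10 were among the 17622 genes with enough counts to test. Kidney RNA was taken at 15 weeks of age from 20 male mice of mixed 129SJ and C57Bl/6J background, made up of 5 untreated WT mice and 15 Col4a3-/- mice, which lack the α3 chain of type IV collagen. Treatment of the knockout mice began at 5 weeks. They received subcutaneous PBS each week (Veh, n = 6), weekly subcutaneous lademirsen at 50 mg/kg (anti-miR-21, n = 6), or ramipril in the drinking water at 11 mg/L beside PBS injections (ACEi, n = 3). Lademirsen is an oligonucleotide inhibitor of the microRNA miR-21, and ramipril inhibits the angiotensin-converting enzyme (ACE). Both drugs were given to the whole animal, so no group separates an action on kidney cells from one elsewhere, and the WT mice received no injection. The libraries were run on 2 flow cells, called A and B here.

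Matricellular proteins sit in the matrix without being load-bearing fibres. They bind collagens, growth factors and cell surface receptors, and they are known for low levels in most adult tissue and for high levels in development, wounds and fibrosis. Fibronectin is the fibre-forming glycoprotein on which collagen and several matricellular proteins are laid down, and integrins are the main receptors for the whole family. In chronic kidney disease these proteins are well known as parts of the scarred interstitium, and osteopontin (Spp1) is in addition made by tubule cells.

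The microRNA that one of the drugs targets, and the places where its seed pairs with the members, are shown first because the drug is directed against this sequence. Mature mmu-miR-21a-5p comes from chr11:86584120-86584141 on the minus strand (RefSeq, GRCm38.p6), and its seed, bases 2 to 8, is in capitals.
mmu-miR-21a-5p: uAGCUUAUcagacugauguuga
The complement of the seed, ATAAGCT, was searched in the 3′ untranslated region of each member's transcript in the annotation (GENCODE, GRCm38). It occurred in 2 of the 10 members, and in 6.97% of the 21685 genes with such a region. The match of Postn is at base 548 of a region of 741 bases, and that of Sparc at base 299 of 1088. The 30 bases shown around each match are chr3:54390832-54390861 (plus strand) for Postn and chr11:55395272-55395301 (minus strand) for Sparc. Capitals mark the match.
Postn: gagatgattgtcATAAGCTtcttgcaatac
Sparc: aaacggagttgcATAAGCTcaccgtccaca
A match is a string of letters and was not tested as a site of action. RefSeq promoter sequences were found for 6 of the 10 members, and not for Fn1, Thbs1, Sparcl1 and Ctgf. Those of Cyr61 (chr3:145649986-145650235, minus strand) and Postn (chr3:54360857-54361106, plus strand) are shown because these were the members that moved least and most under ACEi relative to their difference between Veh and WT. Each runs over the 250 bases before a transcription start in GRCm38.p6. Capitals mark TATAAA on the sense strand, the core letters of a TATA box, and CATTCC, the reverse complement of GGAATG, which are core letters bound by the TEAD partners of Yap and Taz.
Cyr61: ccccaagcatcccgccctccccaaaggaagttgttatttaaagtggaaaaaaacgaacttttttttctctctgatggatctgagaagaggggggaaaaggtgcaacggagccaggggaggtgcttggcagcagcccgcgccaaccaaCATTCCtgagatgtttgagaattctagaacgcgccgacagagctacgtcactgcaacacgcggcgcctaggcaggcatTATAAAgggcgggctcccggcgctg
Postn: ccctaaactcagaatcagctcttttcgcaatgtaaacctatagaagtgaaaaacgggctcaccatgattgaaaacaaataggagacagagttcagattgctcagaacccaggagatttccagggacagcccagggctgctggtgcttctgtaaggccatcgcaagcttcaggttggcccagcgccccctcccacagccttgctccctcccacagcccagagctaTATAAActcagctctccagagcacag
TATAAA begins 25 bases before the start in Cyr61 and 26 bases before it in Postn, and 7.59% of 32851 promoter entries of this length hold it on the sense strand. GGAATG, searched on both strands, lies 103 bases before the start of Cyr61 and was found in 12.6% of all entries. Among the entries of the 6 members it was in that of Cyr61 only, whereas TATAAA was also in those of Tnc and Spp1, further from the start. Some members had more than 1 entry. The Postn entry from chr3:54359017, not shown, held neither TATAAA nor GGAATG, and the Spp1 entry from chr5:104435942 held no TATAAA. The AP-1 letters TGANTCA, in 6.75% of all entries, and the CArG box, in 1.47%, were in none of the entries of the 6 members. Whether any of these letters act on the members was not tested, and for Ctgf, also not called under ACEi, no entry could be searched.

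The labels and libraries were checked before the members were read. Col4a3 had 193.8 to 237.5 CPM (counts scaled to a common library size, with TMM correction) in the WT mice and 27.9 to 74.9 CPM in the knockout mice, without overlap. Each library held between 28474301 and 29479629 counts on genes. The TMM factors, which correct for the make-up of each library, were 0.771 to 0.850 in WT and 1.12 to 1.26 in Veh. Transcripts of kidney epithelium were abundant in all groups, with summed proximal tubule markers at 9596 to 12662 CPM in WT and 1162 to 3120 CPM in Veh. The deposited extraction protocol speaks of fat tissue where the other labels say kidney, and summed adipocyte markers ran from 0.592 to 410 CPM among the Veh mice, from 4.70 to 224 CPM under anti-miR-21, from 0.525 to 8.09 CPM under ACEi and from 1.68 to 18.3 CPM in WT. Whole kidney RNA was measured, so more cells of a type and more RNA per cell cannot be told apart in any result given here. The labels do not say whether the mice came from separate litters, and p-values measure the spread between these mice.

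Levels per length, as the deposited FPKM (fragments per kilobase of transcript, scaled to the size of the library), put the members in a steep order. Spp1, which encodes osteopontin, a phosphoprotein that binds integrins and CD44, was highest in every group, with 344 ± 33.3 FPKM in the 5 WT mice (mean ± SD) and 10301 ± 1657 FPKM in the 6 Veh mice. Sparc, a collagen-binding glycoprotein, came next in every group, at 55.7 ± 14.8 FPKM in WT and 737 ± 89.5 FPKM in Veh. The CCN family genes Ctgf and Cyr61 held the next places in every group, and their ranges overlapped each other in each group. At the lower end stood Tnc, Thbs2 and Postn, at 1.05, 0.582 and 0.936 FPKM on average in WT, with overlapping ranges. Fn1 stood at place 7 in WT, at 3.38 ± 1.47 FPKM, and at place 5 in Veh, at 80.8 ± 15.7 FPKM. Beside Spp1 and Sparc, neighbours in the order whose ranges did not overlap were Sparcl1 and Thbs1 in WT, and Sparc and Ctgf in the 3 knockout groups. In Veh these were also Thbs1 and Thbs2, and under ACEi Cyr61 and Fn1, Sparcl1 and Thbs1, Thbs1 and Tnc, Tnc and Thbs2, and Thbs2 and Postn. The FPKM entries of Fn1, Tnc, Sparcl1 and Ctgf are marked by the authors as confounded with another gene, and FPKM are scaled by library totals alone.

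**Figure D1:**
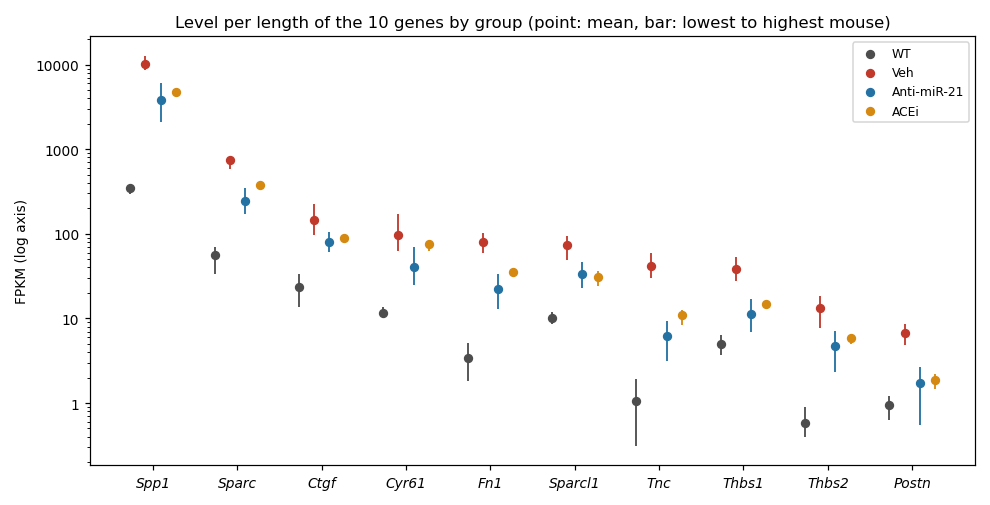
Mean FPKM (points, log axis) of the 10 genes in WT (n = 5), Veh (n = 6), anti-miR-21 (n = 6) and ACEi (n = 3) mice, with bars from the lowest to the highest mouse and genes ordered by their level in Veh. Spp1 lies above all other members in every group, and for each gene the Veh point is the highest of its group of points and the WT point the lowest.

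All 10 members rose from WT to Veh by edgeR's quasi-likelihood test, at an adjusted p under 0.05 over all genes tested, and no Veh mouse overlapped a WT mouse for any of them. Against this stands a wide background, since 73.0% of all genes tested differed between Veh and WT, 39.0% in this direction, and 28.8% were higher in Veh without overlap. The members' median log2 fold change was 2.78, with a range from 2.02 for Ctgf to 4.77 for Tnc, beside a median of 0.07 over all genes. Under anti-miR-21 all 10 were lower than in Veh, 6 of them without overlap, with a median log2 fold change of −1.20. Of all genes, 59.2% differed in that comparison, 30.5% downward, and 17.9% were lower without overlap. Under ACEi 8 of the 10 were lower than in Veh, all 8 without overlap, with a median of −0.89, where 40.1% of all genes differed, 19.1% downward, and 18.8% were lower without overlap. The exceptions under ACEi were Ctgf and Cyr61. Both treatments are set against the same 6 Veh mice, so these counts share samples.

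**Figure D2:**
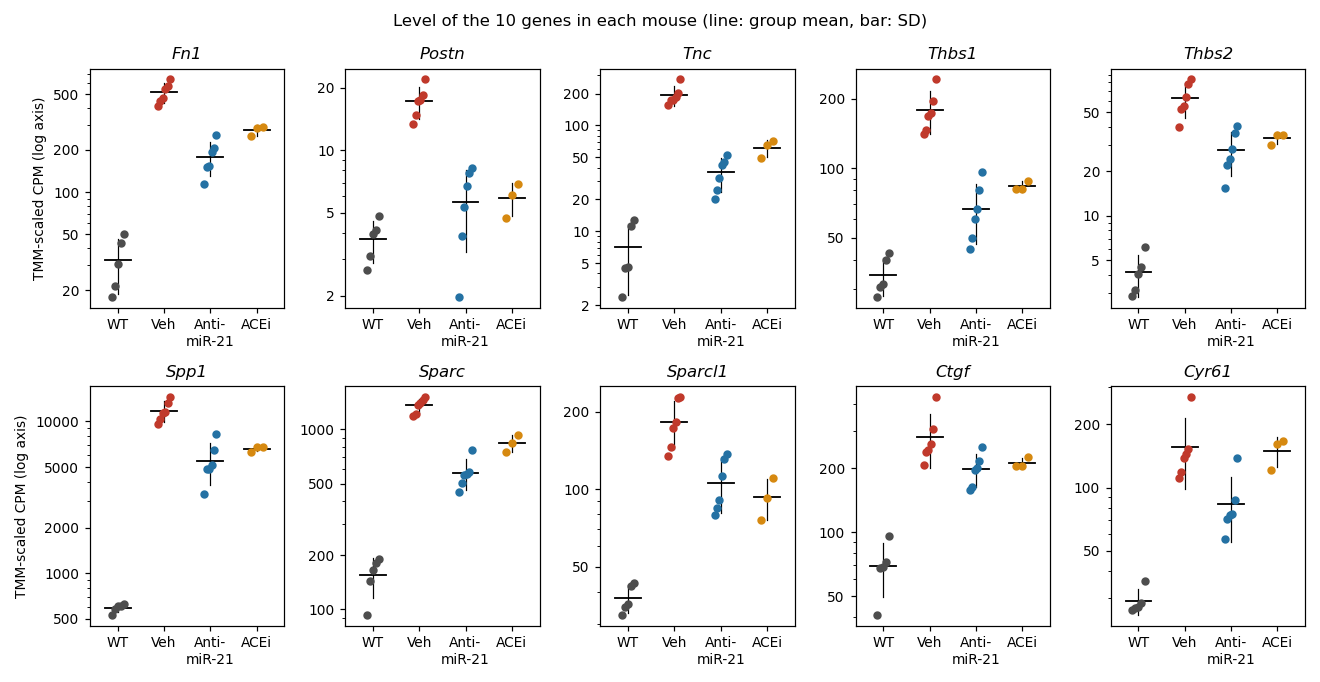
TMM-scaled CPM (log axis, its range set for each gene) of the 10 genes in each of the 20 mice, with the group mean as a line and the SD as a bar. The Veh mice lie above the WT mice for every gene, and the ACEi points of Cyr61 lie among the Veh points.

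Fibronectin (Fn1, chr1:71585520-71653200, minus strand, GRCm38) is the scaffold of newly laid matrix. Its level was 17.9, 21.2, 30.9, 43.3 and 50.1 CPM in the 5 WT mice. In Veh it ran from 414 CPM through a median of 507 CPM to 637 CPM, under anti-miR-21 from 114 through 174 to 255 CPM, and in the ACEi mice it was 249, 285 and 294 CPM. The Veh mice were the highest without overlap, and every treated mouse was above every WT mouse. The rise from WT to Veh was 15.7-fold, or 3.98 on the log2 scale (standard error 0.26, adjusted p = 5.82e-11). Anti-miR-21 lowered it from Veh by 1.52 on the log2 scale (standard error 0.22, adjusted p = 6.4e-06). ACEi mice were lower by 0.90 (standard error 0.27, adjusted p = 0.0126). Without ACEi mouse A11 the log2 fold change was −0.82 and the adjusted p 0.0595, the highest in a range from 0.012 when 1 mouse was left out in turn.

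Tenascin-C (Tnc, chr4:63959785-64047015, minus strand) is a large multi-armed glycoprotein that is scarce in resting tissue and loosens cell adhesion. It had the steepest change of the members in both directions. The 5 WT mice had 2.41, 4.47, 4.66, 11.2 and 12.8 CPM, and the lowest of the Veh mice had 155 CPM, with a median of 181 and a highest value of 272 CPM. Under anti-miR-21 the values ran from 20.2 through 37.3 to 52.9 CPM, and the 3 ACEi mice had 48.8, 65.7 and 70.8 CPM. All treated mice lay between the WT and the Veh mice without overlap. Tnc was 27.3-fold higher in Veh than in WT (log2 fold change 4.77, standard error 0.37, adjusted p = 4.12e-10). It was lower than in Veh by log2 fold changes of −2.42 under anti-miR-21 (standard error 0.30, adjusted p = 1.05e-06) and −1.65 under ACEi (standard error 0.37, adjusted p = 0.00168). The annotation places a processed transcript on the other strand within its locus, with at most 18 counts in any mouse.

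Periostin (Postn, chr3:54361109-54391037, plus strand) cross-links collagen and binds αv integrins, and is a well known product of activated fibroblasts. It was the member that lay nearest to WT after treatment. WT mice had 2.67, 3.10, 3.98, 4.13 and 4.81 CPM, and Veh mice 13.4 to 21.9 CPM with a median of 17.4 CPM. Under anti-miR-21 the values spread from 1.98 CPM in mouse A22 through a median of 6.03 CPM to 8.24 CPM in A8, and the ACEi mice had 4.72, 6.10 and 6.88 CPM. The treated ranges overlapped WT and stayed below Veh. The log2 fold change was 2.20 between Veh and WT (standard error 0.27, adjusted p = 2.63e-07), −1.60 between anti-miR-21 and Veh (adjusted p = 1.07e-05) and −1.54 between ACEi and Veh (adjusted p = 0.000594).

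Against WT, Postn was 0.60 higher under anti-miR-21 on the log2 scale (95% confidence interval 0.0511 to 1.15, adjusted p = 0.0712) and 0.66 higher under ACEi (0.0144 to 1.30, adjusted p = 0.0857). Neither passed the threshold, and both intervals reach past a doubling. The first of these passed it without A15 (adjusted p = 0.0461) or without A22 (adjusted p = 0.00409), in a range up to 0.176 over the mice left out in turn, and with library totals alone (0.86, adjusted p = 0.0185), in a range up to 0.342 over the other settings. The other 9 members were higher than in WT under each treatment, where 23.9% of all genes were higher under anti-miR-21 (43.7% in either direction) and 25.2% under ACEi (47.7% in either direction).

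The thrombospondins bind CD47, CD36 and calcium, and thrombospondin-1 is known as an activator of latent TGFβ and an inhibitor of vessel growth. Thbs1 (chr2:118111876-118127133, plus strand) had 27.7, 30.5, 31.4, 40.0 and 42.7 CPM in WT and 141 to 242 CPM in Veh, with a median of 171 CPM. It had 44.6 to 96.7 CPM under anti-miR-21, with a median of 63.2 CPM, and 80.9, 80.9 and 88.3 CPM under ACEi. No treated mouse overlapped Veh or WT. Its log2 fold change was 2.37 between Veh and WT (standard error 0.19, adjusted p = 6.54e-10), −1.43 under anti-miR-21 (adjusted p = 7.06e-07) and −1.09 under ACEi (adjusted p = 0.000506).

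Thbs2 (chr17:14665500-14694235, minus strand), the relative of Thbs1 that does not activate TGFβ, started lower and rose further. WT mice had 2.85 to 6.19 CPM, and the Veh mice 40.1 to 83.4 CPM, a 14.9-fold rise (log2 fold change 3.90, standard error 0.26, adjusted p = 8.01e-11). Anti-miR-21-treated mice had 15.5 to 40.3 CPM with a median of 26.2 CPM, and the highest of them, A8, just overlapped the lowest Veh mouse, A16. ACEi mice had 29.9, 35.3 and 35.3 CPM, below every Veh mouse. The falls were 1.16 on the log2 scale under anti-miR-21 (adjusted p = 8.57e-05) and 0.89 under ACEi (adjusted p = 0.0108). Without ACEi mouse A13 the latter was −0.81 with an adjusted p of 0.0623, in a range from 0.00512 over the mice left out.

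Osteopontin (Spp1, chr5:104435118-104441050, plus strand) combined the highest level with the second largest change. The WT mice were close together, at 533, 579, 610, 610 and 624 CPM. The Veh mice had 9615 to 14384 CPM with a median of 11451 CPM, resting on 340800 to 520402 counts in a library. Under anti-miR-21 it had 3336 to 8306 CPM with a median of 5039 CPM, and under ACEi 6297, 6759 and 6785 CPM. The treated mice were below every Veh mouse and far above every WT mouse. Spp1 was 19.9-fold higher in Veh than in WT (log2 fold change 4.31, standard error 0.20, adjusted p = 7.53e-13), and lower than in Veh by 1.09 on the log2 scale under anti-miR-21 (adjusted p = 8.31e-06) and by 0.83 under ACEi (adjusted p = 0.00284). It was still 9.32-fold above WT under anti-miR-21 and 11.2-fold above WT under ACEi. A short annotated gene on the same strand overlaps it, with at most 273 counts in any mouse where Spp1 had at least 11961.

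Sparc (chr11:55394500-55423183, minus strand) helps to assemble collagen fibrils. It had 93.4 CPM in WT mouse A18 and 143 to 190 CPM in the other WT mice, and 1191 to 1508 CPM in Veh, with a median of 1386 CPM. It had 447 to 772 CPM under anti-miR-21 with a median of 562 CPM, and 749, 840 and 931 CPM under ACEi. The treated mice lay between WT and Veh without overlap. The log2 fold changes were 3.13 for Veh against WT (standard error 0.17, adjusted p = 4.72e-12), −1.25 for anti-miR-21 against Veh (adjusted p = 5.71e-07) and −0.69 for ACEi against Veh (adjusted p = 0.00483).

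Sparcl1 (chr5:104079111-104113733, minus strand), the related protein hevin, is known from vessel walls and lowers cell adhesion. It had 32.5 to 43.1 CPM in WT and 134 to 228 CPM in Veh, which is a rise by 2.27 on the log2 scale (standard error 0.17, adjusted p = 3.34e-10). Under anti-miR-21 it had 79.2 to 137 CPM, and the ACEi mice had 76.2, 92.8 and 110 CPM. A single treated mouse, A8, reached into the Veh range. It was the sole member with a lower mean under ACEi than under anti-miR-21. The falls from Veh were 0.78 on the log2 scale under anti-miR-21 (adjusted p = 0.000194) and 0.97 under ACEi (adjusted p = 0.000636). Summed endothelial markers were 226 to 284 CPM in Veh and 245 to 280 CPM under ACEi, and 2 of 5 were higher and 1 lower in Veh than in WT.

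The CCN proteins Ctgf and Cyr61 (Ccn2 and Ccn1 in the annotation) bind integrins and growth factors, and their genes are induced early by TGFβ, by stretch and by the co-activators Yap and Taz. Ctgf (chr10:24595442-24598683, plus strand) had 40.9, 67.7, 68.8, 72.6 and 95.5 CPM in WT. It had 207.2 to 429 CPM in Veh with a median of 251 CPM, 158 to 251 CPM under anti-miR-21 with a median of 198 CPM, and 203.4, 204.8 and 224.5 CPM under ACEi. Every knockout mouse was above every WT mouse, and both treated ranges overlapped the Veh range. On flow cell A, however, ACEi mouse A23 and every anti-miR-21-treated mouse were below every Veh mouse, the lowest at 238 CPM. On flow cell B, ACEi mice A11 and A13 were below Veh mice A16 and A20 (207.2 and 243 CPM). Anti-miR-21-treated mouse A10 (251 CPM) was above those 2 Veh mice. The log2 fold change between Veh and WT was 2.02 (standard error 0.20, adjusted p = 1.11e-08), the smallest of the members.

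The fall of Ctgf under anti-miR-21 was 0.51 on the log2 scale (standard error 0.18, adjusted p = 0.0184). It rested on the highest Veh mouse, A9, without which it was −0.32 with an adjusted p of 0.0854, in a range from 0.0105 over the mice left out. Under ACEi the log2 fold change was −0.41 (95% confidence interval −0.868 to 0.0471, adjusted p = 0.144). The latter passed with scaling by library totals alone (−0.69, adjusted p = 0.022) and by limma on log2(FPKM + 1) (−0.65, adjusted p = 0.0339) and log2(FPKM + 0.1) (adjusted p = 0.0358), in a range up to 0.219 over the other settings.

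Cyr61 (chr3:145646976-145649981, minus strand) was the member whose treated groups lay furthest apart. The WT mice had 26.4, 26.7, 27.1, 28.3 and 35.9 CPM. The Veh mice had 111, 119, 138, 144, 153 and 268 CPM, and the highest of them, A19, stood apart. Anti-miR-21-treated mice had 57.0, 71.0, 73.9, 74.7, 87.5 and 139 CPM, and ACEi mice 122, 161 and 166 CPM. All 3 ACEi mice lay within the Veh range and 5 of the 6 anti-miR-21-treated mice below it. The place of the ACEi mice differed by flow cell. On flow cell A, ACEi mouse A23 (122 CPM) was below every Veh mouse, the lowest at 138 CPM. On flow cell B, ACEi mice A11 and A13 (161 and 166 CPM) were above Veh mice A16 and A20 (111 and 119 CPM). Anti-miR-21-treated mouse A10 (139 CPM), also on flow cell B, was above those Veh mice too.

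Between Veh and WT the log2 fold change of Cyr61 was 2.43 (standard error 0.23, adjusted p = 8.65e-09). It was −0.89 for anti-miR-21 against Veh (standard error 0.20, adjusted p = 0.000914) and −0.06 for ACEi against Veh (95% confidence interval −0.577 to 0.462, adjusted p = 0.876). The interval includes a fall by up to 0.577 and a rise by up to 0.462. Without Veh mouse A19 the value under ACEi was 0.20 and without ACEi mouse A23 it was 0.08.

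**Figure D3:**
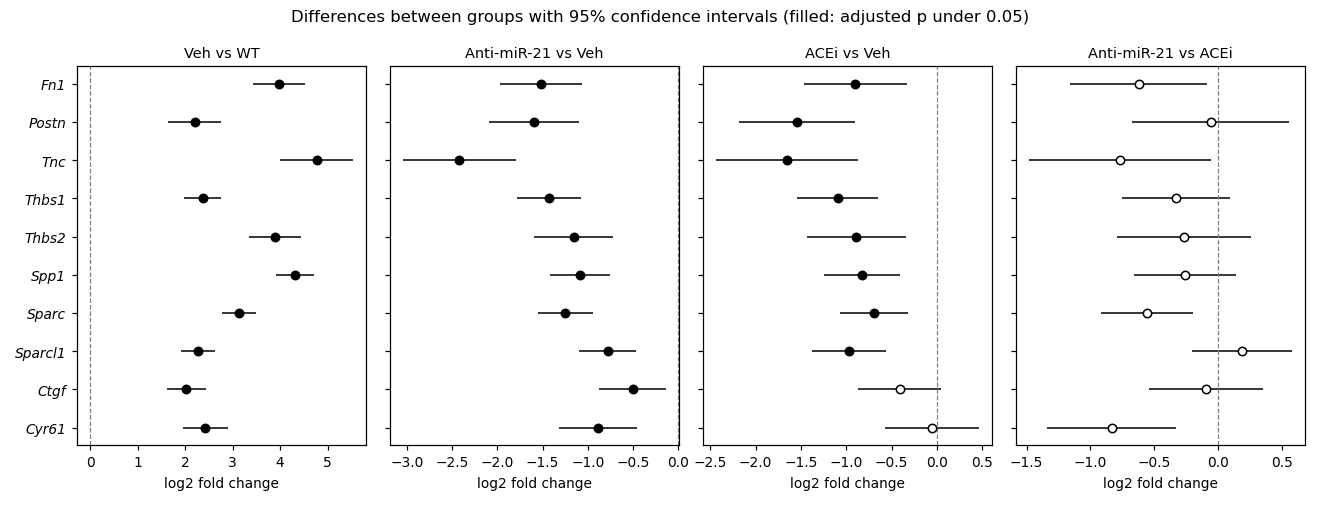
Log2 fold changes of the 10 genes (points) with 95% confidence intervals (bars) in 4 comparisons, each panel with its own axis, filled where edgeR's adjusted p was under 0.05. All points of the first 2 panels are filled, Ctgf and Cyr61 are open under ACEi, and all points are open between the treatments.

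The treatments were compared directly to ask whether the members differed between them. None of the 10 differed between anti-miR-21 and ACEi at an adjusted p under 0.05 by edgeR, where 0.584% of all genes did, 103 in number. At an unadjusted p under 0.05 edgeR gave 4 members, Fn1, Tnc, Sparc and Cyr61, and 2562 genes in all. DESeq2 called 1 member, Cyr61 (adjusted p = 0.0389, in a range up to 0.211 over the other settings), and limma on the FPKM called 0. The log2 fold change was below 0 for 9 of the 10 members, that is, lower under anti-miR-21, with a median of −0.30 beside 0.01 over all genes, and above 0 for Sparcl1. No member separated the treated groups without overlap, where 8.99% of all genes did.

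The largest difference between the treatments was that of Cyr61, at −0.83 on the log2 scale (95% confidence interval −1.34 to −0.327, adjusted p = 0.118 by edgeR). The group ranges overlapped through a single anti-miR-21-treated mouse, A10, without which it was −1.03 with an adjusted p of 0.0387. Over the mice left out in turn the adjusted p reached 0.307. Tnc differed by −0.77 (−1.48 to −0.0563, adjusted p = 0.306), Fn1 by −0.62 (−1.16 to −0.0895, adjusted p = 0.269) and Sparc by −0.55 (−0.914 to −0.194, adjusted p = 0.14). For Postn the difference was −0.06 with an interval from −0.672 to 0.557, and for Ctgf −0.10 with an interval from −0.544 to 0.353.

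Placing the treated mice on the way from the Veh to the WT mean gives the members a common scale, on which 0% is the mean log2 CPM of Veh and 100% that of WT. By group mean under anti-miR-21, Postn lay at 78.3% ± 35.0 (SD, n = 6), Thbs1 at 61.4% ± 17.7 and Tnc at 49.6% ± 10.9. Spp1 lay at 26.4% ± 10.3 and Ctgf at 23.8% ± 12.4, at the other end. Under ACEi Postn was again nearest to WT, at 69.8% ± 12.5 (SD, n = 3), followed by Thbs1 at 45.3% ± 3.06 and Sparcl1 at 42.5% ± 11.8, and Cyr61 lay at 0.192% ± 10.3. Under ACEi, Tnc, which had the largest change from WT to Veh, lay at 32.9% ± 5.68, Spp1, with the next largest, at 18.96% ± 1.41, and Ctgf, with the smallest, at 18.2% ± 3.92. The Veh and WT means that set the scale carry their own error, and Ctgf spread from −32.5% to 19.4% among the Veh mice themselves.

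**Figure D4:**
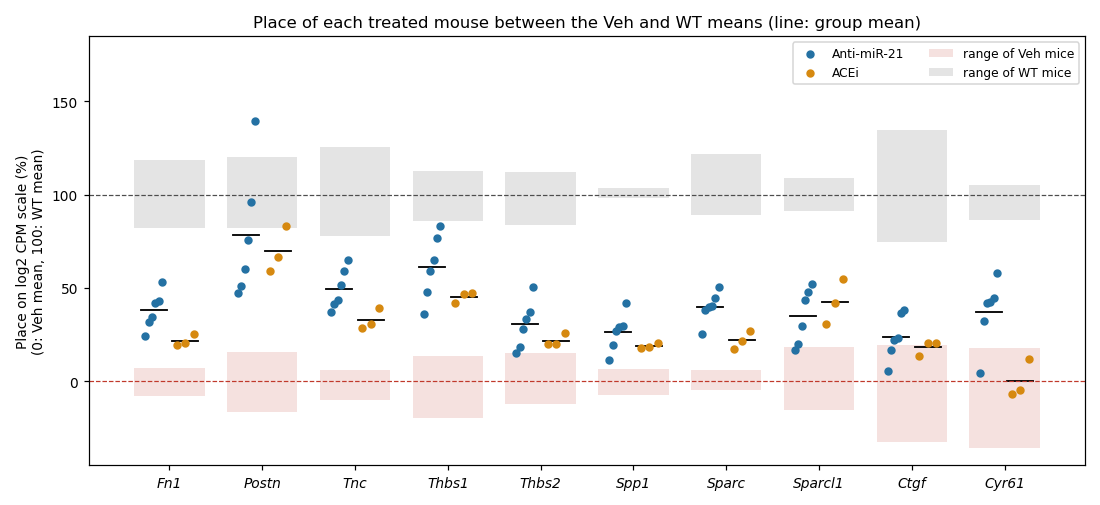
Position of every anti-miR-21-treated (n = 6) and ACEi-treated (n = 3) mouse between the Veh mean (0%) and the WT mean (100%) on the log2 CPM scale, with group means as lines and the ranges of the Veh and WT mice shaded. For Postn, A15 and A13 lie within the shaded WT range and A22 beyond it, whereas the ACEi mice of Cyr61 lie in the Veh range.

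Some mice were the lowest or the highest of their group for many members. In Veh, mouse A16 was the lowest for 9 of the 10 members, all but Spp1. Under anti-miR-21, mouse A22 was the lowest for 9, all but Ctgf, and A8 the highest for 7. Under ACEi, A23 was the highest for 8, and in WT A18 was the lowest for 5 and A3 for 4. The highest place was spread over 4 mice each in Veh and in WT, none of them for more than 4 members. Other transcripts moved with these mice. A16 had the highest summed proximal tubule markers of the Veh mice, at 3120 CPM, and the highest thick ascending limb markers, at 4651 CPM. Likewise A22 had the highest proximal tubule markers of its group, at 8962 CPM, and A8 the lowest, at 5319 CPM. WT mouse A18 had 99.3 CPM of summed endothelial markers, where the highest WT mouse had 265 CPM. Summed fibroblast and macrophage markers were lowest in A16 among the Veh mice, at 1504 and 575 CPM. Under anti-miR-21 both were highest in A8, at 822 and 356 CPM. Fibroblast markers were lowest in A22 under anti-miR-21, at 429 CPM, and in A18 among the WT mice, at 111 CPM. Macrophage markers were lowest in A15 and A6 in those groups. The part of these markers in the members' values was not tested. Without A16 and A18, all 10 members differed between Veh and WT and between anti-miR-21 and Veh as before, and 9 differed between ACEi and Veh, now with Ctgf (log2 fold change −0.48, adjusted p = 0.0412).

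Markers of several cell types moved between the groups beside the members. Between Veh and WT, 5 of 5 fibroblast, 5 of 5 macrophage, 4 of 4 tubule injury and 3 of 3 T cell markers were higher, and 4 of 4 proximal tubule and 2 of 2 thick ascending limb markers were lower. Smooth muscle and podocyte markers were higher for 3 of 4 each, adipocyte markers for 4 of 5, and platelet and megakaryocyte markers were higher for 1 and lower for 1 of 3 tested. Of all genes tested, 73.0% differed between Veh and WT, and 39.0% were higher in Veh. Summed fibroblast markers (Pdgfra, Pdgfrb, Dcn, Lum and Col1a1) were 111 to 258 CPM in WT, 1504 to 1812 CPM in Veh, 429 to 822 CPM under anti-miR-21 and 805 to 915 CPM under ACEi. Summed macrophage markers were 125 to 138 CPM in WT, 575 to 695 CPM in Veh, 248 to 356 CPM under anti-miR-21 and 319 to 380 CPM under ACEi. Summed tubule injury markers, among them Havcr1 (Kim-1), were 22.3 to 34.5 CPM in WT, 818 to 1327 CPM in Veh, 263 to 548 CPM under anti-miR-21 and 528 to 610 CPM under ACEi. Against Veh, 4 of 5 fibroblast, 5 of 5 macrophage and 3 of 4 tubule injury markers were lower under anti-miR-21, and 2 of 5, 5 of 5 and 1 of 4 under ACEi. Of all genes tested, 30.5% were lower under anti-miR-21 and 19.1% under ACEi. All 4 proximal tubule markers were higher under each treatment. Platelets carry thrombospondin-1, Sparc and fibronectin, and summed platelet and megakaryocyte markers were 9.40 to 14.6 CPM in WT and 7.67 to 10.4 CPM in Veh. This sum joins markers that moved in opposite directions, with log2 fold changes from −1.19 to 2.92. The groups thus stood in the same order for fibroblast, macrophage and injury markers as for most of the members, and the part of cell number in the members' levels was not tested. With the adipocyte markers as a term in the model, the same number of members was called in every comparison.

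Within flow cell A alone, 10 of 10 members again rose from WT to Veh, by a median log2 fold change of 2.83. Under anti-miR-21, 10 of 10 were lower than in Veh within it, with a median of −1.30. Between anti-miR-21 and WT 9 were higher within it, with a median of 1.61. Flow cell A held 1 ACEi library, so comparisons with ACEi were not made within it. Flow cell B held 2 libraries each of WT, Veh and ACEi and 1 of anti-miR-21, and no comparison was run within it. With flow cell as a term, 8 members were lower under ACEi than in Veh, where 37.3% of all genes differed in either direction.

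Other matricellular genes, from a list of 22 of which 16 were tested, moved less uniformly than the members. Members and list alike were chosen with earlier results of these data known. From WT to Veh 10 rose, none fell and 6 did not pass the test, and the median log2 fold change was 1.72. Of all genes tested, 73.0% differed in this comparison and 39.0% were higher in Veh. Smoc2, a relative of Sparc, had the highest CPM in Veh of those that rose, at 22.2 ± 6.50 CPM in the WT mice and 205.3 ± 37.95 CPM in the Veh mice (mean ± SD), and fell to 68.8 ± 24.4 CPM under anti-miR-21 and 107.5 ± 15.3 CPM under ACEi. Tgfbi, an integrin-binding protein induced by TGFβ, rose by 3.09 on the log2 scale and Fstl1, a secreted Sparc relative, by 2.99. Wisp1, of the CCN family like Ctgf and Cyr61, rose by 3.10, fell under anti-miR-21 by 0.67 (adjusted p = 0.00545), and had a log2 fold change of −0.25 under ACEi (adjusted p = 0.417). The other CCN genes tested, Nov and Wisp2, had 1.2 and 1.6 CPM on average in Veh and passed the test under ACEi, with log2 fold changes of −0.96 (adjusted p = 0.0263) and −1.71 (adjusted p = 0.0135). Under anti-miR-21 they had −0.57 (adjusted p = 0.0637) and −1.46 (adjusted p = 0.0037). Under anti-miR-21, 8 of the 16 were lower than in Veh and 2, Tnxb and Ecm1, higher, where 59.2% of all genes differed, 30.5% downward. Under ACEi 9 were lower and none higher, where 40.1% of all genes differed, 19.1% downward. Tnxb, the tenascin of loose connective tissue, had 18.4 ± 5.64 CPM in WT and 18.6 ± 3.06 CPM in Veh, in contrast to the 27.3-fold rise of Tnc.

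Of 17 receptors of these proteins, 12 rose and 4 fell from WT to Veh, and the median log2 fold change was 1.44, beside the 73.0% of all genes that differed there. Cd44, the hyaluronan receptor that also binds osteopontin, rose most, from 1.77 ± 0.872 CPM to 63.4 ± 6.89 CPM. The fibronectin receptor subunits Itga5 and Itgb1 rose by 2.38 and 0.81 on the log2 scale, and Itgb3 and Itgav, which pair as a receptor for osteopontin, periostin and fibronectin, by 2.48 and 0.86. Cd36, a receptor of thrombospondin and of fatty acids, went the other way, from 886 ± 111 CPM in WT to 102 ± 46.4 CPM in Veh, and back to 407 ± 106 CPM under anti-miR-21 and 409 ± 26.2 CPM under ACEi. The other receptors that were lower in Veh were Itgb6, Itgb8 and Sdc4. Under anti-miR-21, 12 receptors were lower and 4 higher than in Veh, where 59.2% of all genes differed, and under ACEi 8 were lower and 2 higher, where 40.1% did.

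All 8 partners of matrix assembly and processing rose from WT to Veh, and their median log2 fold change was 3.01. Of all genes tested, 73.0% differed in this comparison and 39.0% were higher in Veh. Bmp1, the proteinase that trims procollagen, had 13.6 ± 3.30 CPM in WT and 119.6 ± 21.01 CPM in Veh. Mmp7, a matrix metalloproteinase of injured tubules, had 10.0 ± 4.46 CPM in Veh where WT had 0.0168 CPM on average. Under anti-miR-21, 7 of the 8 were lower than in Veh and under ACEi 5 were, where 30.5% and 19.1% of all genes were lower. Mmp9, a gelatinase, was the one partner that differed between the treatments, at 1.77 ± 0.292 CPM under anti-miR-21 and 3.41 ± 0.554 CPM under ACEi (log2 fold change −0.94, adjusted p = 0.0406). Adamts1, a proteinase that cuts thrombospondins and proteoglycans, had 130 ± 30.8 CPM in Veh, 79.2 ± 14.8 CPM under anti-miR-21 and 127 ± 11.1 CPM under ACEi. As with Cyr61, its log2 fold change under ACEi was near 0, at −0.04 (adjusted p = 0.888), beside −0.71 under anti-miR-21 (adjusted p = 0.00029), and the difference between the treatments did not pass (adjusted p = 0.0748).

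Targets of Yap and Taz other than Ctgf and Cyr61 were counted on 19 tested genes of a list of 20. Between Veh and WT 16 rose and 3 fell, and the median log2 fold change was 0.84. Of all genes tested, 73.0% differed there and 39.0% were higher in Veh. Ankrd1, a stretch-responsive nuclear protein, rose by 4.39 on the log2 scale, from 1.55 ± 0.914 CPM to 32.6 ± 7.10 CPM, and had 13.9 ± 5.28 CPM under anti-miR-21 and 17.99 ± 2.75 CPM under ACEi. Igfbp3, Nt5e and Dock5 were the 3 that were lower in Veh. Under anti-miR-21, 11 were lower and 3 higher than in Veh, and under ACEi 8 were lower and 2 higher, where 59.2% and 40.1% of all genes differed. Between the treatments the median log2 fold change of the 19 was −0.09, with a range from −0.55 to 0.28, beside −0.83 for Cyr61, and none of these passed the test.

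**Figure D5:**
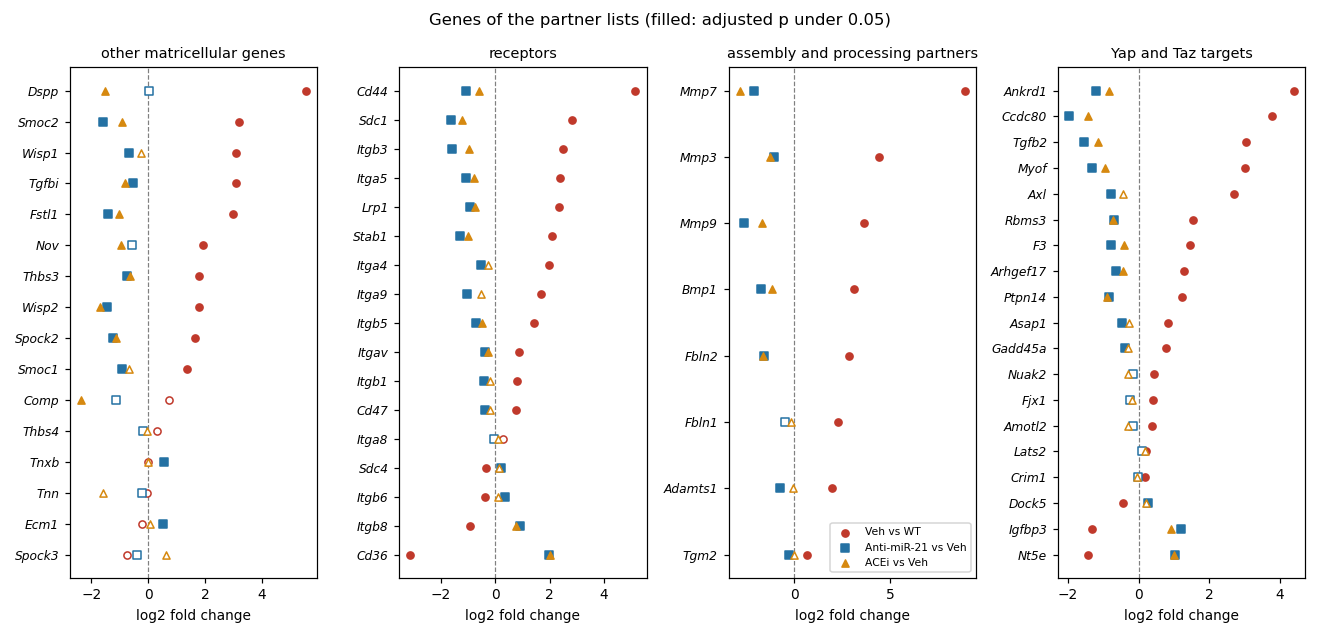
Log2 fold changes of the tested genes of the 4 lists, in Veh against WT (circles), anti-miR-21 against Veh (squares) and ACEi against Veh (triangles), filled where edgeR's adjusted p was under 0.05. Most circles lie right of 0 and most squares and triangles left of it, and Cd36 shows the reverse among the receptors.

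The genes whose pattern over the 20 mice was most like that of a member were found by the root mean square difference of the centred log2 CPM. This difference was not scaled to the member's own SD over the mice, which ran from 0.863 log2 units for Ctgf to 1.99 for Tnc. Sparc was matched closest, by Lhfp at 0.15 log2 units and Vsir at 0.17, and Spp1 by C1qb at 0.18 and Mgp at 0.22. Fn1 was nearest to Adcy7 and the collagen gene Col1a2, at 0.21 and 0.22, and Thbs2 to the collagenase gene Mmp14 at 0.19. Thbs1 was nearest to Enc1 and Sparcl1 to Pamr1, both at 0.19. Tnc and Postn had no gene as near, with Scube1 at 0.45 and Nptxr at 0.34. Ctgf was nearest to Cep170 and Cyr61 to Pmaip1, both at 0.25. Among the members themselves the nearest pair was Fn1 and Thbs2, at 0.27.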

How the data were processed

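The authors aligned 100-base paired-end reads to GRCm38 with OSA 4 in OmicSoft Studio 9.0. The deposited estimated counts (expected counts) per gene carry no normalization between libraries, 27.9% of the positive ones are not whole, and they were rounded here. The authors also deposited FPKM values, which are scaled by transcript length and library total. The paper's text names Ensembl 83 for the gene model, whereas the annotation deposited with the FPKM gives UCSC genes as the source for most entries, all members among them, so that FPKM and counts rest on different gene models. Another 3 FPKM columns matched no mouse of these groups and were not used. The library table gives ramipril at 4 mg/kg where the labels give 11 mg/L.

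Mice were grouped by the labels' group name. Genes were filtered with filterByExpr (at least 10 counts, total of 15), scaled by TMM and fitted in edgeR 4.0.16 (R 4.3.3; quasi-likelihood), with 1 coefficient per group over all 20 mice, Benjamini-Hochberg adjustment and a threshold of 0.05. CPM are TMM-scaled, and log2 CPM use a prior count of 2. The steps were run on simulated counts in which far fewer genes differed between Veh and WT than in these data. That run therefore could not test the scaling where most genes differ. DESeq2 1.42.0 and limma 3.58.1 served as alternatives, together with other scalings, filters, pseudocounts of 1 and 0.1, flow cell or adipocyte markers as terms, flow cell A alone, a fit of just the groups compared, and fits without each mouse. Symbols were found for 98.8% of gene IDs.

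The members and the 4 partner lists and 11 marker lists were chosen with earlier results of these data known. All members, any gene of the lists, Col4a3 and the 2 nearest genes of each member (mean of at least 1 log2 CPM) could be named. Plots were drawn with matplotlib 3.10.9.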

Additional observations from a re-analysis of the deposited data

Results flagged for a closer look

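A sample far from the rest of its group was looked for in 30 sets of values, the 10 members in WT, Veh and anti-miR-21, by the gap to the nearest mouse as a share of the group's range on the log2 CPM scale. Chance alone gives such a gap in about 1 of 20 sets, and 2 were found, both for Cyr61. WT mouse A3 had 35.9 CPM, with a gap of 0.765 of the range of the 5 WT mice. Veh mouse A19 had 268 CPM, with a gap of 0.638 of the range of the 6 Veh mice. Without A19 the log2 fold change of Cyr61 was 2.21 between Veh and WT and −0.64 between anti-miR-21 and Veh (adjusted p = 0.00313 by edgeR, the highest over the mice left out in turn). Without A3 it was 2.52 between Veh and WT.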

How the results depend on the processing

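Of 1350 member values under an alternative, 1328 kept their direction and their side of the threshold. With library totals alone, all genes had a median log2 fold change of 0.65 between Veh and WT and −0.38 between anti-miR-21 and Veh, in place of 0.07 and −0.04. The members' medians were then 3.37 and −1.53. Upper-quartile scaling gave medians of 0.18 and −0.12 over all genes. With mice left out in turn, Cyr61 under ACEi against Veh ranged from −0.13 (without A13) to 0.20 (without A19) and turned also without A23 (0.08). Postn between the treatments ranged from −0.20 (without A8) to 0.12 (without A22) and turned also without A15 (0.03) or A23 (0.07). None of these values passed the threshold, and the cause was not tested. Between the treatments, 1 member was called with DESeq2, 1 without A16 and A18 together (Sparc, adjusted p = 0.0497 in a range up to 0.213, a setting chosen after seeing the data), and 0 to 1 with each mouse left out. Genes called between the treatments were 0.584% of the 17622 genes tested. As a share of the same 17622 they came to 0.375% with no filter on low counts, 0.88% with at least 10 counts in every mouse, 2.48% with DESeq2, 0.38% with limma on log2(FPKM + 0.1), 1.16% without A16 and A18, and 0.119% (without A23) to 1.21% (without A8) with each mouse left out. This share moved by over 1.5 times also without A10, A11, A13, A15 or A22. Members called with each mouse left out numbered 9 to 10 between anti-miR-21 and Veh and 7 to 8 between ACEi and Veh. Genes called in those fits were 54.8% to 58.8% and 28.2% to 41.6% of the same 17622. Under ACEi against WT, Postn passed with library totals alone, with a fit of just the groups compared and on both FPKM scales. Comparisons with ACEi were not run within flow cell A, which held 1 such library. No paired analysis was possible because the mouse names are unique and share no number between groups. With 3 ACEi mice, the intervals of their differences are wider than those between anti-miR-21 and Veh.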
